A study of Mus musculus with 6 samples.

Results

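The 9 genes described here belong to B lymphocytes and to the lymphoid aggregates they form, and were followed in liver tumors: Cd79a, Cd79b, Ms4a1, Cd22, Pax5, Cr2, Ltb, Lta and Cd37. Their rows were taken from the deposited table by gene name, and all 9 were found among its 34745 genes. RNA-seq had been performed on 3 tumors of Prmt3f/f mice and 3 tumors of Prmt3LKO mice, in which an Alb-Cre transgene deletes the floxed Prmt3, a protein arginine methyltransferase, in hepatocytes. The albumin promoter directs this deletion to hepatocytes and not to B cells, so the comparison asks how the B cell transcripts of a tumor differed when its hepatocytes lacked Prmt3. All mice of both groups had received the liver carcinogen diethylnitrosamine (DEN; 25 mg/kg, when 2 weeks old) and the hepatotoxin CCl4 (10%, 0.5 ml/kg) from 6 weeks, and were sampled at 26 weeks. The labels number the Prmt3f/f tumors 7, 66 and 71 and the Prmt3LKO tumors 92, 93 and 94, and do not say whether each came from a separate mouse, so the p-values measure only the spread between these tumors.

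A B cell recognizes antigen through membrane immunoglobulin, which signals through the CD79A and CD79B chains. CD22 and the complement receptor CR2 lower or raise the strength of that signal, CD20 (Ms4a1) and the tetraspanin CD37 sit in the same membrane, and PAX5 holds the cell to the B lineage. B cells and other lymphocytes also make the tumor necrosis factor family members lymphotoxin alpha (Lta) and lymphotoxin beta (Ltb), which act on stromal cells through the lymphotoxin beta receptor and are needed to build lymph nodes and the follicle-like aggregates that can form in inflamed liver.

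Between 18440244 and 27976598 reads were counted per tumor, and with 3 counts taken as the limit, a gene without reads could have reached 0.107 to 0.163 CPM of the unscaled total count, depending on the tumor. CPM of single genes are read counts scaled by the size of the library after TMM normalization, sums over a list are CPM of the unscaled total count, and limits and intervals cover counting error only. Prmt3 was lower in all 3 Prmt3LKO tumors, at 6.60, 8.49 and 10.2 CPM in Prmt3f/f against 2.80, 2.03 and 3.82 CPM. The 8 hepatocyte markers were high in every tumor, together 141380 to 196144 CPM, and the ranges of the groups overlapped. Genes taken as markers of other organs differed between the libraries: 10 kidney markers summed to 3.71 to 4.83 CPM in Prmt3f/f and 9.22 to 13.9 CPM in Prmt3LKO, and the pancreatic genes Cpa1, Cpb1 and Pnlip had 7, 12 and 5 counts in Prmt3LKO tumor 92 and 0 in the other 5. These 3 were named after their values were seen. All 10 pancreas markers together had 372 to 753 counts in Prmt3f/f and 539, 1134 and 1057 in Prmt3LKO tumors 92, 93 and 94, nearly all from Cela1, the single one tested (log2 fold change 0.79, edgeR unadjusted p 0.0403). Hbb-bs, a red cell globin, was at 40.2, 47.4 and 46.0 CPM in Prmt3f/f and 16.9, 27.3 and 11.3 CPM in Prmt3LKO. Whether the reads of the kidney markers and of Cela1 came from other organs or from the tumors themselves was not tested. The part of all these differences in the results on B cell genes was not tested either.

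The 9 genes were rare transcripts apart from Ltb. Their counts summed to 1363, 586 and 1141 in Prmt3f/f tumors 7, 66 and 71 and to 396, 1358 and 312 in Prmt3LKO tumors 92, 93 and 94. Without Ltb the sums were 323, 324 and 429 against 171, 262 and 215, so all 3 Prmt3LKO libraries held fewer reads of the other 8 genes, at totals that themselves differed in depth. The filter on low counts was passed by 7 members, of 13892 genes in all, and Cr2 and Lta did not.

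No member was called with the quasi-likelihood test of edgeR (Benjamini-Hochberg adjusted p under 0.05 and a fold change of at most 0.5 or at least 2), and 0% of all 13892 genes tested were called in either direction. At an unadjusted p under 0.05, 1 of the 7 tested members was lower in Prmt3LKO, Cd37, where 4.37% of all tested genes were lower, and 0 were higher, where 2.2% were. The count of 1 became 2 without Prmt3f/f tumor 7 (Cd37 and Cr2) and 0 without Prmt3f/f tumor 66 or 71 or Prmt3LKO tumor 92 or 94. Without Prmt3LKO tumor 93 it was Ltb (edgeR unadjusted p 0.0368) and no longer Cd37 (0.123), and in the exact test of edgeR it was Ms4a1 (0.0423) in place of Cd37 (0.0803). Cr2 entered the fit without tumor 7 through its 20 and 29 counts in Prmt3f/f, against 3, 10 and 7 in Prmt3LKO. Its entry rests on the group where it is higher, so it adds no support. The fitted log2 fold change was below 0 for 6 of the 7, all but Cd79b, against 49.9% of all tested genes. For Ms4a1 and Cd37 all 3 Prmt3LKO tumors lay below all 3 Prmt3f/f tumors, an order seen in 6.6% of all tested genes, and for 0 members they lay above, against 5.56%. The median log2 fold change was -0.53 over the 7 members and 0.00037 over all genes tested. Without Prmt3LKO tumor 93 the median of the 8 members that then passed the filter, Cr2 among them, was -1.06. With any other single tumor left out it lay between -0.56 (without Prmt3f/f tumor 7) and -0.41 (without Prmt3LKO tumor 92). In bulk tumors, fewer B cells and less RNA per B cell cannot be told apart.

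**Figure D1:**
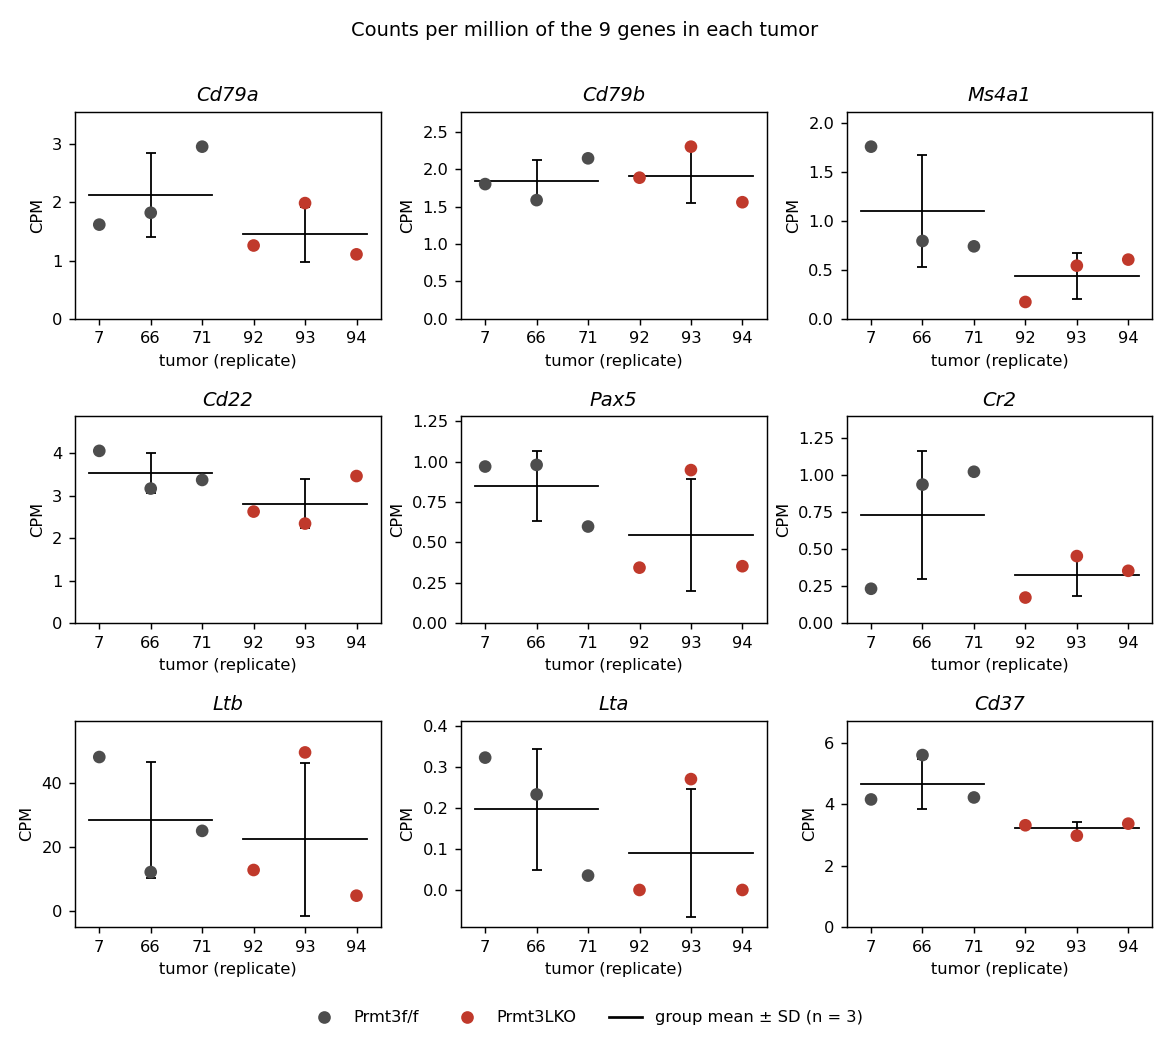
Level of each of the 9 genes (y axis, CPM on a linear scale) in each tumor (x axis, replicate number), Prmt3f/f in grey and Prmt3LKO in red, with group means ± SD (n = 3). The 3 Prmt3LKO tumors lie below the 3 Prmt3f/f tumors for Ms4a1 and Cd37, the groups overlap for the other 7 genes, and tumor 93 stands highest of the Prmt3LKO tumors for Cd79a, Cd79b, Pax5, Cr2, Ltb and Lta.

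The signaling chains of the B cell receptor came first. Cd79a (ENSMUSG00000003379, chr7:24897381-24902197, + strand, GRCm38, protein coding) had 35, 39 and 84 counts in Prmt3f/f tumors and 22, 44 and 22 in Prmt3LKO tumors, or 1.62, 1.82 and 2.95 CPM against 1.26, 1.98 and 1.11 CPM. Tumor 71 was the highest, and Prmt3LKO tumor 93 lay above Prmt3f/f tumors 7 and 66, so the groups overlapped. The mean was 2.13 ± 0.721 CPM in Prmt3f/f and 1.45 ± 0.470 CPM in Prmt3LKO (SD, n = 3 each), with a log2 fold change of -0.55 (SE 0.39, 95% interval -1.46 to 0.35) and an adjusted p of 0.892 (Benjamini-Hochberg) in the quasi-likelihood test of edgeR. Cd79b (ENSMUSG00000040592, chr11:106311341-106314762, - strand), whose product pairs with that of Cd79a, had 39, 34 and 61 counts against 33, 51 and 31, or 1.80, 1.59 and 2.15 CPM against 1.89, 2.30 and 1.56 CPM. The highest and the lowest tumor were both Prmt3LKO. Its means of 1.84 ± 0.282 and 1.91 ± 0.372 CPM (SD, n = 3 each) differed by a log2 fold change of 0.053 (SE 0.31, 95% interval -0.67 to 0.77, edgeR adjusted p 0.994), an interval that still holds changes of more than 0.5 log2 units either way. The sign of this value turned when Prmt3f/f tumor 66 or Prmt3LKO tumor 93 was left out.

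Among the surface molecules, Ms4a1 (ENSMUSG00000024673, chr19:11249675-11266241, - strand), which encodes CD20, was the member with the most negative fitted value. It had 38, 17 and 21 counts in Prmt3f/f and 3, 12 and 12 in Prmt3LKO, that is 1.75, 0.793 and 0.738 CPM against 0.171, 0.541 and 0.603 CPM. The groups did not overlap, but tumor 7 carried much of the Prmt3f/f mean and the 3 counts of tumor 92 have an exact Poisson 95% interval of 0.619 to 8.77. The log2 fold change was -1.28 (SE 0.59, 95% interval -2.66 to 0.091), with an unadjusted p of 0.0633 and an adjusted p of 0.774 in edgeR's test, and the exact two-sided permutation test on log2 CPM gave p = 0.1, the smallest that 3 against 3 tumors allow.

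Cd37 (ENSMUSG00000030798, chr7:45233632-45239115, - strand), a tetraspanin of mature B cells that other leukocytes also carry, was the steadiest of the members in Prmt3LKO. It had 90, 120 and 120 counts against 58, 66 and 67, or 4.15, 5.60 and 4.22 CPM against 3.31, 2.98 and 3.37 CPM. All Prmt3LKO tumors were below all Prmt3f/f tumors, and within Prmt3LKO they lay close together. The means were 4.66 ± 0.816 and 3.22 ± 0.212 CPM (SD, n = 3 each), and the log2 fold change was -0.53 (SE 0.23, 95% interval -1.06 to -0.0024, unadjusted p 0.0492, adjusted p 0.756 in edgeR's test). Cd37 shares 13 exon bases with Tead2 on the opposite strand, which had 84, 126 and 54 counts in Prmt3f/f and 34, 44 and 22 in Prmt3LKO. Without a statement on strand, reads from those bases cannot be assigned, and their part in the value was not tested. Of 8 other tetraspanins, 1 was lower at an unadjusted p under 0.05, against 4.37% of all tested genes. It was Cd53 (27.7, 24.6 and 16.3 CPM against 10.8, 12.7 and 13.6 CPM, log2 fold change -0.88), itself a general leukocyte gene, and the median over the 8 was -0.070.

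Cd22 (ENSMUSG00000030577, chr7:30865402-30880342, - strand), an inhibitory sialic acid receptor of B cells, had 88, 68 and 96 counts in Prmt3f/f and 46, 52 and 69 in Prmt3LKO. Scaled to CPM these were 4.06, 3.17 and 3.38 against 2.63, 2.35 and 3.47. Tumor 94 lay above 2 of the Prmt3f/f tumors, whereas 92 and 93 were below all of them. The log2 fold change was -0.33 (SE 0.26, 95% interval -0.94 to 0.28) with an adjusted p of 0.911 in edgeR's test. An annotated antisense gene shares 479 exon bases with Cd22 and had 0 counts in all 6 tumors. Cr2 (ENSMUSG00000026616, chr1:195136811-195176716, - strand), the complement receptor of B cells and follicular dendritic cells, had few reads, with 5, 20 and 29 counts in Prmt3f/f and 3, 10 and 7 in Prmt3LKO. Tumor 92 alone was at the 3 counts taken as the limit. Tumor 7 had few of these reads although its Ms4a1 count was the highest of the 6. In the fit without a filter the log2 fold change of Cr2 was -1.14 (SE 0.69, edgeR unadjusted p 0.129, adjusted p 0.869).

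Pax5 (ENSMUSG00000014030, chr4:44524757-44710487, - strand), the transcription factor that defines B cell identity, had 21, 21 and 17 counts in Prmt3f/f and 6, 21 and 7 in Prmt3LKO, which is 0.969, 0.980 and 0.598 CPM against 0.343, 0.947 and 0.352 CPM. Prmt3LKO tumor 93 reached the level of Prmt3f/f tumors 7 and 66, and the other 2 Prmt3LKO tumors were below every Prmt3f/f tumor. The log2 fold change was -0.60 (SE 0.54, 95% interval -1.85 to 0.64, adjusted p 0.928 in edgeR's test), and without tumor 93 it was -1.27.

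Ltb and Lta, the ligands of lymphoid organization, lie next to each other on chromosome 17. Ltb (ENSMUSG00000024399, chr17:35194439-35196320, + strand) was the member with the most reads, 1040, 262 and 712 counts in Prmt3f/f and 225, 1096 and 97 in Prmt3LKO. In CPM it was 48.0, 12.2 and 25.0 against 12.9, 49.4 and 4.88, so the highest and the lowest of the 6 tumors were both Prmt3LKO. The means of 28.4 ± 18.1 and 22.4 ± 23.8 CPM (SD, n = 3 each) differed by less than the spread within either group, with a log2 fold change of -0.34 (SE 0.80, 95% interval -2.19 to 1.51, adjusted p 0.984 in edgeR's test). Single tumors decided this value, since it was 0.26 without Prmt3f/f tumor 7, 0.14 without Prmt3LKO tumor 94 and -1.68 without Prmt3LKO tumor 93. Lta (ENSMUSG00000024402, chr17:35203165-35205351, - strand) had 7, 5 and 1 counts against 0, 6 and 0. The only Prmt3LKO tumor with reads of Lta was again 93, and since the groups overlap at counts this low no fold was taken.

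Promoter stretches of 3 members are shown because they hold letters known from B cell and NF-kappa B regulation, beside the levels of those factors given here. The sequences come from the RefSeq annotation of GRCm38.p6, cover bases before the annotated start that no annotated exon holds, and run 5′ to 3′ on the strand of the gene with matches in capitals. They cover chr7:24897247-24897380 (+) for Cd79a, chr7:30879029-30879176 (-) for Cd22 and chr17:35194257-35194438 (+) for Ltb.
Cd79a: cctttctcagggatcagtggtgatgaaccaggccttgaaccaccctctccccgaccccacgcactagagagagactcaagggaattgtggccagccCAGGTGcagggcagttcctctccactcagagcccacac
Cd22: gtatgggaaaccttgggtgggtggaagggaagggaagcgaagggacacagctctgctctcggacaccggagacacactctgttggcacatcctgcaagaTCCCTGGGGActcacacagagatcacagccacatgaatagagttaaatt
Ltb: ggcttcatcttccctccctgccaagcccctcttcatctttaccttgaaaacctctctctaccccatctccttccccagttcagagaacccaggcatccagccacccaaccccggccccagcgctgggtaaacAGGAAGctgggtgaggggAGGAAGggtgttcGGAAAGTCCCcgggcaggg
In Cd79a the capitals mark an E-box, CAGGTG, in Cd22 the palindrome bound by EBF1, searched with any base at its 2 central places, and in Ltb, from 5′ to 3′, a pair of ETS cores, AGGAAG, and the kappa B site of the kappa light chain enhancer, which lies on the other strand. Both strands of the 250 bases before each start were searched. The EBF1 palindrome was found in 0.779% and the kappa B site in 0.14% of 32851 promoters, AGGAAG in 29.5% and CAGGTG in 17.2%. Of the 7 members with an entry in the promoter table, Cd22 alone held the EBF1 palindrome, Ltb alone held the kappa B site, 3 held AGGAAG and 5 held CAGGTG, part of them in exon bases that are not printed. The octamer ATGCAAAT was in 1.6% of all promoters and in 0 of the 7, and CAGCTG was in 13.0% and in Lta. Ebf1, the factor that gives the palindrome its name, had 17, 22 and 11 counts in Prmt3f/f and 3, 7 and 6 in Prmt3LKO, all Prmt3LKO tumors lower, and did not pass the filter. These matches are letters in a window and were not tested for use in these tumors.

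**Figure D2:**
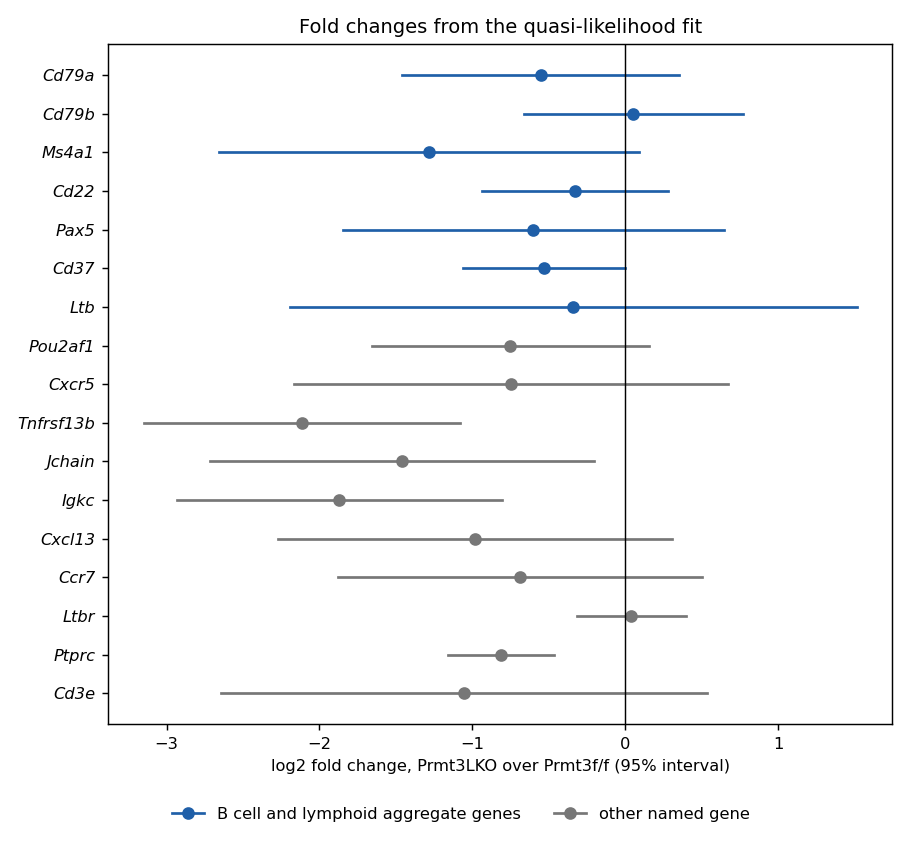
Fitted log2 fold change of Prmt3LKO over Prmt3f/f (x axis) with its 95% interval for the 7 tested members in blue and for other named genes in grey, with 0 marked by a vertical line. The interval of Cd37 ends just below 0, at -0.0024, those of the other 6 members hold 0, and those of Tnfrsf13b, Jchain, Igkc and Ptprc lie below 0.

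The members differed widely in level when set per length. In FPKM, which the authors divided by gene length, the means over the 6 tumors were 7.43 for Ltb, 1.23 for Cd79a, 0.895 for Cd79b, 0.576 for Cd37, 0.305 for Cd22, 0.106 for Lta, 0.0925 for Ms4a1, 0.0716 for Pax5 and 0.0481 for Cr2. Ltb was above Cd79a, Cd37 above Cd22 and Cd22 above Lta in 6 of 6 tumors. Cd79a was above Cd79b, Cd79b above Cd37 and Pax5 above Cr2 in 5 of 6, whereas Lta against Ms4a1 and Ms4a1 against Pax5 stood 3 to 3, so those neighbors did not differ beyond their spread. Between tumors, FPKM of Cd79b varied 1.56-fold, of Ltb 10.7-fold and of Ms4a1 11.1-fold from the lowest to the highest. The length behind the FPKM was longer than the annotated exons together for most members, 2.30 times for Ltb and 2.07 times for Cd22 but equal for Cd79a. Per base of annotated exon, Cd79b (1.32) therefore stood above Cd79a (1.23) and Ms4a1 (0.125) above Lta (0.106), with Ltb still first at 17.1.

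Other B cell genes were read from 3 lists: surface receptors, signaling proteins behind the B cell receptor, and transcription factors. Of 43 genes 38 were tested, 35 had a log2 fold change below 0, 12 (31.6%) were lower at an unadjusted p under 0.05, against the 4.37% of all tested genes, and 0 were higher. After adjustment the quasi-likelihood test called 0 of them. The medians were -0.49 for the 12 tested surface genes, -0.42 for the 15 signaling genes and -0.42 for the 11 transcription factors. Of these lower genes, Plcg2, Pik3cd, Vav1, Inpp5d, Prkcb, Irf8, Spi1 and Cd83 also work in myeloid cells, T cells or both. The count of 12 was 4 of 39 tested without Prmt3LKO tumor 92, 8 of 39 without Prmt3f/f tumor 66 and 8 of 40 without Prmt3LKO tumor 94. Over all genes tested, 607 of 13892 were lower at that limit with all tumors. This was 418 of 14270 without tumor 92, 425 of 14137 without tumor 66 and 603 of 14217 without tumor 94. The median over the 3 lists was -0.42 with all tumors and -0.33 without tumor 92. The part of tumor 92 and that of a smaller number of tumors in the count were not told apart.

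Single genes of these lists covered a wide range of values. Tnfrsf13b, which encodes the BAFF and APRIL receptor TACI, had 62, 39 and 40 counts against 6, 14 and 8, or 2.03 ± 0.750 CPM against 0.459 ± 0.152 CPM (SD, n = 3 each). All Prmt3LKO tumors were far below all Prmt3f/f tumors, with a log2 fold change of -2.11 (SE 0.45, 95% interval -3.15 to -1.08, unadjusted p 0.00167, adjusted p 0.592 in edgeR's test). Its adjusted p was 0.0354 in DESeq2 and 0.0199 in the exact test of edgeR, so the call depends on the test. Cd180, a Toll-like receptor relative of B cells and dendritic cells, was at 6.32, 5.69 and 6.57 CPM against 2.63, 4.11 and 3.67 CPM (log2 fold change -0.83), and Cxcr5, which brings B cells into follicles, had 14, 21 and 17 counts against 3, 18 and 6.

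Among the transcription factors, Spib had 54, 42 and 48 counts in Prmt3f/f and 10, 27 and 6 in Prmt3LKO (log2 fold change -1.53, edgeR unadjusted p 0.0186), and Ikzf3, which B and T lymphocytes share, had 97, 86 and 95 against 22, 47 and 45 (-1.06, edgeR unadjusted p 0.00918). Both were lower in all 3 Prmt3LKO tumors. Pou2af1, the octamer coactivator of B cells, had 36, 32 and 64 counts against 15, 34 and 16, and its tumor 93 lay within the Prmt3f/f range, as that of Pax5 did (log2 fold change -0.75, edgeR unadjusted p 0.0911).

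Later stages of the B lineage were measured through antibody genes. Of 12 immunoglobulin constant genes 10 were tested, all 10 had a log2 fold change below 0, 6 were lower at an unadjusted p under 0.05, against 4.37% of all tested genes, and the median was -1.46, against -0.53 for the members. With 1 tumor left out the median lay between -1.94 (without Prmt3LKO tumor 93, 7 of 10 lower) and -0.93 (without Prmt3f/f tumor 71, 4 of 11 lower). The difference between these lists was not tested. Igkc had 3133, 2826 and 5462 counts in Prmt3f/f and 594, 1656 and 385 in Prmt3LKO, all Prmt3LKO tumors lower (log2 fold change -1.87, unadjusted p 0.00383, adjusted p 0.592 in edgeR's test). Ighm had 903, 4974 and 1145 counts against 163, 950 and 329, a Prmt3f/f mean carried by tumor 66, and its log2 fold change was -0.84 without that tumor and -2.19 with it. Ighg2c gave the smallest p of the list, with 679, 317 and 1580 counts against 92, 118 and 61 (log2 fold change -2.90, unadjusted p 0.000399, adjusted p 0.592 in edgeR's test). In DESeq2 the adjusted p was 0.00787 for Igkc and 5.82e-07 for Ighg2c. In the exact test of edgeR it was 0.0307 and 3.51e-05, so these calls depend on the test as well. Near-identical constant genes can share reads, so single genes of this family are uncertain.

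Jchain, which joins the chains of secreted IgA and IgM, had 1395, 852 and 1496 counts in Prmt3f/f and 204, 828 and 155 in Prmt3LKO (log2 fold change -1.46, unadjusted p 0.0283, adjusted p 0.684 in edgeR's test). It was the 1 gene of 8 tested plasma cell genes that was lower at an unadjusted p under 0.05, against 4.37% of all tested genes. Jchain did not pass this limit without Prmt3f/f tumor 7 or 71 or Prmt3LKO tumor 92 or 94. The list's median was -0.19, and between -0.47 without Prmt3LKO tumor 93 and -0.049 without Prmt3LKO tumor 94. Several others of that list, such as Xbp1, Sdc1 and Fkbp11, are also made by hepatocytes. Of the germinal center genes 4 of 9 were tested, and 2 were lower at an unadjusted p under 0.05, against 4.37% of all tested genes. Il21r had 92, 90 and 93 counts against 24, 34 and 39 (log2 fold change -1.26, unadjusted p 0.00204, adjusted p 0.592 in edgeR's test). Its adjusted p was 0.0493 in DESeq2 and 0.0875 in the exact test of edgeR. Bcl6 had 845, 1041 and 1641 counts against 620, 444 and 343 (edgeR unadjusted p 0.00922). Other cells also express both genes. Of 7 precursor B cell genes only Dntt was tested, at 430, 22 and 44 counts against 46, 119 and 98, while Rag1, Rag2 and Vpreb2 had 0 counts in every tumor. The fitted log2 fold change of Dntt was -0.78 with Prmt3f/f tumor 7 and 1.72 without it.

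**Figure D3:**
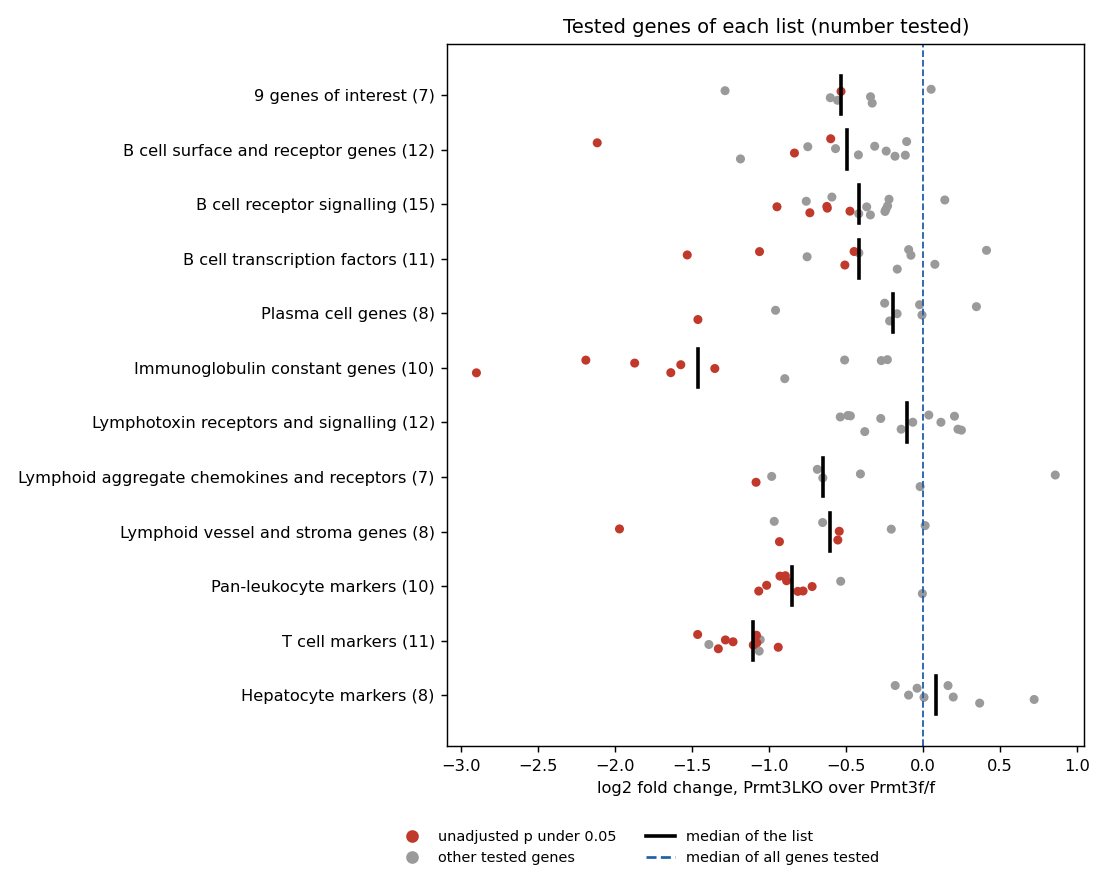
Fitted log2 fold change of Prmt3LKO over Prmt3f/f (x axis) for every tested gene of 12 gene lists (y axis, number tested in parentheses), in red at an unadjusted p under 0.05, with black bars at the list medians and a dashed line at the median of all genes tested. The median is -0.53 for the 9 genes of interest, -1.46 for immunoglobulin constant genes, -1.10 for T cell markers and 0.085 for hepatocyte markers.

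Lymphoid aggregates were examined through the partners of Ltb and Lta. Ltbr, the receptor of the lymphotoxin heterotrimer, had 2639, 2567 and 3202 counts in Prmt3f/f and 2205, 2979 and 2055 in Prmt3LKO, or 118 ± 4.85 CPM against 121 ± 16.1 CPM (SD, n = 3 each), and the groups overlapped (log2 fold change 0.038, 95% interval -0.32 to 0.40, edgeR unadjusted p 0.809). The sign of this value turned to -0.040 without Prmt3LKO tumor 93. The NF-kappa B subunits downstream of this receptor varied more. Nfkb2 was at 33.4, 24.4 and 28.4 CPM in Prmt3f/f and 18.6, 29.6 and 13.3 CPM in Prmt3LKO, and Relb at 11.1, 8.49 and 8.26 CPM against 5.43, 12.1 and 5.38 CPM. In both, as in Ltb, tumor 93 was the highest of the Prmt3LKO tumors and tumor 7 the highest of the Prmt3f/f tumors. Of the 12 receptor and signaling genes, all tested, 7 were below 0, none was past an unadjusted p under 0.05, and the median was -0.10. Without Prmt3LKO tumor 93, 2 were lower at that limit, Nfkb2 (log2 fold change -0.85 against -0.49, edgeR unadjusted p 0.00776) and Relb (-0.78 against -0.27, edgeR unadjusted p 0.0113), and without Prmt3f/f tumor 71, 1 was.

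Of the 6 other ligands of this branch of the tumor necrosis factor family, 4 were tested and 0 were lower at an unadjusted p under 0.05. With single tumors left out 4 to 6 were tested and up to 2 were lower. The 2 were found without Prmt3LKO tumor 93, of 6 then tested, where 567 of all 14224 genes tested were lower. Tnf had 12, 19 and 13 counts against 2, 14 and 5, and Tnfsf13b, which encodes the B cell survival factor BAFF, had 17, 15 and 6 against 2, 9 and 12. Cxcl13, the chemokine that draws CXCR5-bearing B cells, had 36, 109 and 45 counts in Prmt3f/f and 14, 38 and 33 in Prmt3LKO (log2 fold change -0.98, 95% interval -2.27 to 0.31, edgeR unadjusted p 0.117). Tumor 66 stood well above the other 5, the groups overlapped, and without that tumor the log2 fold change was -0.21. Ccl19 and Ccl21a, the T zone chemokines of lymphoid tissue, had 0 counts in all 6 tumors, and the files hold near-identical copies of Ccl21a that were listed at 0 as well, so those zeros are uncertain as to the copy. Ccr7, their receptor, had 70, 47 and 48 counts against 12, 56 and 23.

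Of 10 aggregate chemokine and receptor genes, 7 were tested and 6 were below 0, with a median of -0.65. At an unadjusted p under 0.05, 1 was lower, Il7r (65, 78 and 63 counts against 12, 43 and 30), against 4.37% of all tested genes. With 1 tumor left out the list had 0 to 3 lower genes and a median of -1.16 (without Prmt3LKO tumor 93) to -0.23 (without Prmt3f/f tumor 66). Among genes of lymphoid vessels and stroma 8 of 10 were tested and 4 were lower at an unadjusted p under 0.05, against 4.37% of all tested genes. They were Vcam1, Icam1, Pdpn and the lymphocyte integrin Itgb7, the last at 8.49, 7.79 and 8.44 CPM against 3.94, 3.79 and 5.23 CPM. The count of 4 was 2 without Prmt3f/f tumor 7 or Prmt3LKO tumor 92. Madcam1 and Glycam1, addressins of high endothelial vessels, had at most 4 counts in any tumor. All members but Lta had at least 3 counts in every tumor, and Ms4a1 and Cr2 had just the 3 counts taken as the limit in Prmt3LKO tumor 92. Ccl19, Madcam1 and Glycam1 were listed at or near 0 in both groups, as was Ccl21a with the limit given for its copies.

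The fitted values of other leukocyte genes were lower as well. Of 10 pan-leukocyte markers 8 were lower at an unadjusted p under 0.05, with a median of -0.85, and of 11 T cell markers also 8, with a median of -1.10. Over all tested genes the share was 4.37%. The summed level of the pan-leukocyte markers was 289 to 329 CPM in Prmt3f/f and 160 to 231 CPM in Prmt3LKO, and that of T cell markers 36.0 to 48.0 CPM against 8.35 to 25.8 CPM. Without tumor 92 the count of lower T cell markers was 3 and that of pan-leukocyte markers 6. Over all genes the count then was 418 of 14270, against 607 of 13892 with all tumors. Ptprc, which encodes CD45 on all leukocytes, was at 40.1 ± 0.784 CPM in Prmt3f/f and 22.8 ± 3.38 CPM in Prmt3LKO (SD, n = 3 each), with a log2 fold change of -0.81 (unadjusted p 0.000726, adjusted p 0.592 in edgeR's test). Its adjusted p was 0.00903 in DESeq2 and 0.0281 in the exact test of edgeR, at a fold change short of the limit for a call. The part of these other leukocytes in the values of Cd37 and Ltb, which they also express, was not tested.

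Set against Ptprc within each tumor, 6 of the 9 members had a higher mean in Prmt3LKO. Log2 CPM of Cd79b minus that of Ptprc was -4.44, -4.56 and -4.15 in Prmt3f/f tumors and -3.28, -3.31 and -3.97 in Prmt3LKO tumors, so all Prmt3LKO tumors were higher by this measure, with a mean difference of 0.87. Cd22 gave the same order, -3.31, -3.60 and -3.52 against -2.82, -3.29 and -2.86, with a difference of 0.49. For the other 7 members the groups overlapped, with differences of 0.30 for Cd79a, 0.31 for Cd37, 0.16 for Pax5, 0.080 for Ltb and -0.36 for Ms4a1, and of -0.024 for Cr2 and -0.0092 for Lta, which rest on few reads. Against the T cell gene Cd3e, which had 75, 60 and 75 counts in Prmt3f/f and 3, 54 and 32 in Prmt3LKO, the difference was above 0 for all 9 members, and for Cd79b (1.59) all Prmt3LKO tumors were higher. The 3 counts of Cd3e in tumor 92 make the ratios of that tumor imprecise. Against Alb, all Prmt3LKO tumors were lower only for Cd37, by a mean of -0.44. Ptprc and Cd3e were themselves lower in Prmt3LKO (log2 fold change -0.81 and -1.06), where the median over all genes tested was 0.00037. A gene of unchanged level therefore rises against both, so these counts do not show that the members were spared. The share of all genes that rise in this way was not counted. These ratios are descriptions, and no test was run on them.

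**Figure D4:**
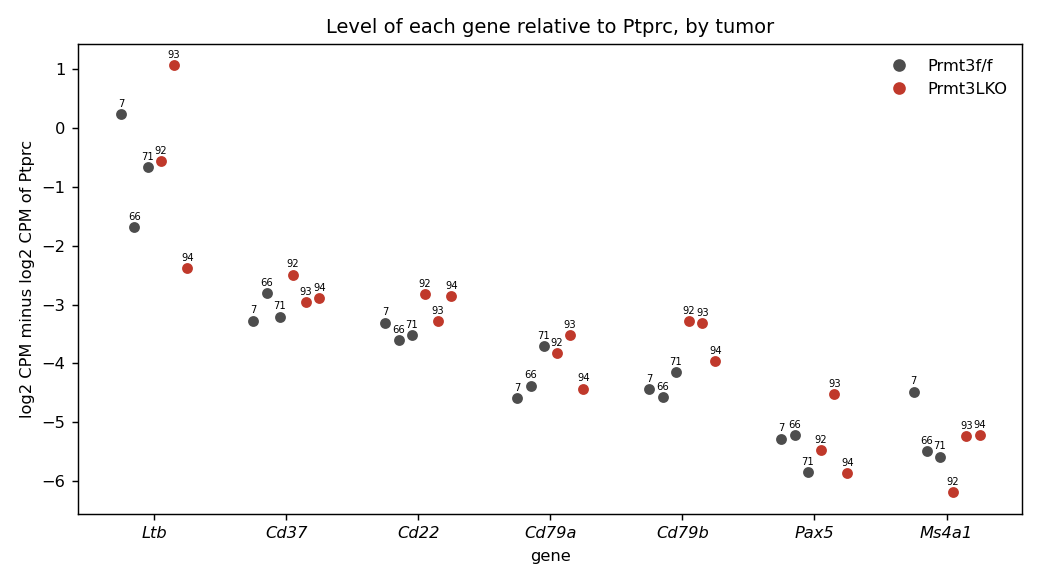
Log2 CPM of the 7 tested members minus log2 CPM of Ptprc (y axis) in each tumor, numbered, Prmt3f/f in grey and Prmt3LKO in red. All Prmt3LKO tumors lie above all Prmt3f/f tumors for Cd22 and Cd79b, and the groups overlap for the other 5 genes.

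The Prmt3LKO tumors differed among themselves. Tumor 93 was at or above the lowest Prmt3f/f tumor for 4 of the 7 tested members and tumors 92 and 94 for 2 and 1. In the 3 B cell lists together these counts were 18, 11 and 12 of 38 genes for tumors 93, 92 and 94. Over all 13892 genes tested the shares were nearly equal, 75.8%, 76.3% and 75%. Tumor 93 was the highest of the Prmt3LKO tumors for 4 of the 7 members and 21 of the 38 list genes, against 36.9% of all genes tested.

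The genes whose levels over the 6 tumors were most like the mean log2 CPM of Cd79a, Cd79b, Ms4a1, Cd22 and Cd37 were Clec9a (Pearson's r = 0.996), Cd180 (0.992), Stat5a (0.992), Zfp943 (0.992) and Gbp5 (0.991), out of 12028 candidates averaging 1 CPM or more. With each group centered on its own mean the values were 0.983, 0.962, 0.989, 0.980 and 0.956. The candidates left out the members, genes with immunoglobulin heavy or light chain symbols, and predicted or clone-named genes. Immunoglobulin genes therefore could not appear among these 5. Clec9a marks cross-presenting dendritic cells, and Gbp5 encodes an interferon-inducible GTPase. The mean stood closer to some of its own members than to others, with r of 0.905 for Ms4a1, 0.655 for Cd22, 0.653 for Cd79a, 0.633 for Cd37 and 0.0545 for Cd79b, and of 0.849, 0.214, 0.334, -0.617 and 0.353 with the groups centered. The correlations are descriptions over n = 6 tumors of genes picked because they were the most alike.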

How the data were processed

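RNA-seq libraries of 6 tumors, 3 Prmt3f/f and 3 Prmt3LKO, were analysed. The authors aligned paired-end reads of 150 bases to GRCm38 with HISAT2 2.0.4, and the submitters' processing notes also name StringTie 1.3.0 and bcl2fastq 2.19. The counting tool, annotation release and use of strand are not given in the sources used here. The deposited table holds raw counts per gene and FPKM, which the authors made from the counts, gene length and library total. All 12 columns of values were mapped to tumors by name, and 0 were left unused.

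Counts were filtered with filterByExpr (minimum count 10, total 15), scaled by TMM and fitted in R 4.3.3 with edgeR 4.0.16 (quasi-likelihood test), and p-values were adjusted by Benjamini-Hochberg over 13892 genes. Log2 CPM used a prior count of 2. For single members an exact permutation test (two-sided) was added, whose smallest p is 0.1. Alternatives were DESeq2 1.42.0, library size without TMM, no filter, a mean of at least 1 CPM, edgeR's exact test, limma-voom (limma 3.58.1), FPKM with pseudocounts of 1 and 0.1, and each tumor left out. The scripts were tested on simulated data. Members and lists were chosen with earlier results of these data known. Named genes were the 9 members, the tested gene with the smallest p in each B cell or aggregate list, 18 genes fixed by name, and the 5 genes most like the mean of 5 members. Other list genes were named after their values were seen. Some genes of the lists are not reported here. Gene coordinates are those of the files, and exon lengths and overlaps come from GENCODE M21 on the same build. The number of tumors limits the precision.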

Additional observations from a re-analysis of the deposited data

How the results depend on the processing

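No member was called under any alternative, and the smallest adjusted p of a member, for Cd37, was 0.550. At an unadjusted p under 0.05 edgeR's quasi-likelihood test found 1 member lower, Cd37, against 1 other, Ms4a1, with the exact test of edgeR, and 0 with DESeq2, without a filter and with limma-voom, and 0 to 2 when single tumors were left out (2 without Prmt3f/f tumor 7, 0 without Prmt3f/f tumor 66 or 71 or Prmt3LKO tumor 92 or 94, and Ltb in place of Cd37 without Prmt3LKO tumor 93). Cr2, 1 of the 2 without Prmt3f/f tumor 7, had not passed the filter with all tumors. Over all genes the quasi-likelihood test called 0 lower and 0 higher (607 and 305 at an unadjusted p under 0.05), DESeq2 43 and 9, the exact test of edgeR 35 and 5, and the fit without a filter 2 lower. For each, the cause was not tested.

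Signs turned for Cd79b (-0.043 without Prmt3f/f tumor 66, and -0.10 to 0.18 over all tumors left out), Ltb (0.26 without Prmt3f/f tumor 7, 0.14 without Prmt3LKO tumor 94, -1.68 without Prmt3LKO tumor 93), Ltbr (-0.040 without Prmt3LKO tumor 93, otherwise up to 0.14) and Dntt (0.48 with limma-voom, 1.72 without Prmt3f/f tumor 7, -1.30 without Prmt3f/f tumor 66, 0.28 from FPKM with a pseudocount of 0.1), which is also the precursor list's median (0.48 with limma-voom, -1.30 to 1.72 without single tumors). The medians of lymphotoxin receptors (-0.13 to 0.0091, the latter without Prmt3f/f tumor 66) and of CD37 relatives (-0.18 to 0.055, above 0 without Prmt3f/f tumor 7 or, at 0.012, Prmt3LKO tumor 94) turned too. Cd79a (-0.85 to -0.24), Ms4a1 (-1.56 to -0.10), Cd22 (-0.51 to -0.083), Pax5 (-1.27 to -0.042), Cr2 (-1.55 to -0.050) and Cd37 (-0.62 to -0.20) stayed below 0 under every alternative that gave a value, the smallest sizes coming from FPKM with a pseudocount of 1 for all but Cd79a. With a mean of at least 1 CPM, Ms4a1 and Pax5 had no value. The alternatives for list genes and list medians were added after the data had been seen. No paired analysis was possible because the groups share no replicate number. The few reads of most members limit their precision.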
